A study of Mus musculus with 6 samples.

Results

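The genes described here are 10 genes of the hypoxia-inducible factor (HIF) pathway and of mitophagy, the removal of mitochondria by autophagy, in neurospheres. Neurospheres are the floating colonies that precursor cells form in culture, and these were primary colonies from the hippocampus of adult male C57BL/6J mice, 8 to 12 weeks old. The members are the mitophagy receptors Bnip3 and Bnip3l, the transcription factors Hif1a and Epas1, the oxygen-sensing hydroxylases Egln1 and Egln3, and the HIF targets Vegfa, Adm, Ankrd37 and Ndrg1. They were chosen by name from the 19937 genes that the arrays measured, and the choice was made with the difference of Bnip3 already known. A gene was represented by the transcript cluster, a group of probes for 1 transcribed region, that the array annotation names for it alone. Where a gene had several such clusters, the cluster that was brightest on average across the 6 arrays was taken. All 10 members had a cluster, and 2 of them, Bnip3 and Bnip3l, had 2. Norepinephrine at 10 µM (N) was given to the cultures behind 3 of the 6 arrays, and potassium chloride at 15 mM (K) to those behind the other 3. All neurospheres were cultured with EGF and bFGF and collected on day 14, the labels call them small neurospheres, and no untreated arrays are analysed here. A difference is therefore one between the treatments, with no baseline for either. The labels call the replicates biological. How many animals or cultures stood behind each array is not given in the sources used here, so p-values measure the spread between these samples only.

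In cells with enough oxygen, the hydroxylases encoded by Egln1 and Egln3 mark HIF alpha subunits for the von Hippel-Lindau protein, which sends them to the proteasome. When oxygen is low the alpha subunits, encoded by Hif1a and Epas1, persist, pair with ARNT and bind the DNA core ACGTG or GCGTG near their targets. This control acts mainly on the protein, so the mRNA of an alpha subunit does not measure its activity. BNIP3 and BNIP3L (NIX) sit in the outer mitochondrial membrane and bind LC3-family proteins of the autophagosome. Norepinephrine is a transmitter that acts on adrenergic receptors, and raised potassium chloride depolarises cells.

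The regions upstream of the members' start sites are shown first, since HIF reaches its targets through these core motifs. The RefSeq promoter table for GRCm38.p6 held 8 start sites for 7 of the members (Bnip3, Hif1a, Egln1, Egln3, Vegfa, Ankrd37 and Adm). In the 250 bases before each start site, ACGTG and GCGTG were searched on both strands. A palindrome CACGTG, which is also the E-box core, counts as 2 copies of ACGTG. The windows of Bnip3, which held the most copies, and of Egln1 and Adm are printed 5′ to 3′, with every copy in capitals. Bnip3 lies on the minus strand of chromosome 7 (window chr7:138909507-138909756), Egln1 on the minus strand of chromosome 8 (chr8:124949255-124949504) and Adm on the plus strand of chromosome 7 (chr7:110627407-110627656).
Bnip3: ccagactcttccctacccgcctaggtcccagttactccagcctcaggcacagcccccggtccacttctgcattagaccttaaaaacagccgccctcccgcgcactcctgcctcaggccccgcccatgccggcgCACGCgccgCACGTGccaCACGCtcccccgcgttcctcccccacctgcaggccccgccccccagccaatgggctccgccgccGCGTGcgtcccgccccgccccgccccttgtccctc
Egln1: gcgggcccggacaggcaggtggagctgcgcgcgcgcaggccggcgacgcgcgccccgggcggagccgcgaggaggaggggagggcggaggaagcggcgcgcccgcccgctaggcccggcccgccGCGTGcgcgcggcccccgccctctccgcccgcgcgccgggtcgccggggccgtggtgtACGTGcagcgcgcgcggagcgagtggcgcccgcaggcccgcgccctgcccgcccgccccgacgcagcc
Adm: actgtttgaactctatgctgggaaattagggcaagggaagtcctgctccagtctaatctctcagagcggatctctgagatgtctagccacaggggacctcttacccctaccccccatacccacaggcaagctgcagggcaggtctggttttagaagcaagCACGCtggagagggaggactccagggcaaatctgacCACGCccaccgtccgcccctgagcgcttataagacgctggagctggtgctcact
The Bnip3 window held 5 copies, 2 of ACGTG and 3 of GCGTG, starting 117, 108, 107, 99 and 35 bases before the start site. The 2 copies of ACGTG came from 1 palindrome. Egln1 had 1 copy of each core, and Adm had 2 copies of GCGTG. Ankrd37 held 4 copies, Hif1a 3 and Egln3 1. Of the 2 Vegfa start sites, 1 had 2 copies and the other had 0. The window with 0 copies (from 46032378) lies just outside the gene, which RefSeq places from 46016993 to 46032377 on the minus strand. The window with 2 copies (46025164 to 46025413) lies inside the gene and belongs to an internal start site. The windows of Hif1a and Ankrd37 also lie inside the bounds of their genes. In all, 7 of the 8 windows held at least 1 copy, where 38.6% of the 32851 windows of that length in the table did. ACGTG alone stood in 16.6% of all windows and GCGTG in 28.2%. These matches describe the sequence and do not show binding.

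Values are given on the log2 scale of RMA (robust multi-array average), so that a difference of 1 is a 2-fold difference in signal. Levels are compared between arrays and not between genes, apart from a place above or below the median over all clusters. The array medians lay between 6.30 and 6.40. K replicate 3 was the array least correlated with its own group (mean r = 0.948 over all clusters), and K replicate 2 was closer to the N arrays (mean r = 0.969) than to the other K arrays (mean r = 0.954), as was K replicate 1 by a small margin (mean r = 0.955 against 0.954). Of 8 precursor markers measured, 7 had means above 6.34, the median over all clusters, among them Sox2 with 10.16 ± 0.26 in N and 9.90 ± 0.27 in K (mean ± SD over 3 arrays each). All 10 astrocyte markers also had means above that median, as did all but 1 of 7 markers of the oligodendrocyte lineage. All 7 endothelial markers had means below it, as did 6 of 8 markers of neurons and neuroblasts. In such bulk RNA, fewer cells of a type and less RNA per cell cannot be told apart.

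Of the members, the mitophagy receptor Bnip3 differed most between N and K, by a log2FC of 1.35 (standard error 0.25, 2.56-fold higher with N). Its values were 8.45, 8.72 and 8.36 on the N arrays, against 6.58, 7.64 and 7.24 on the K arrays. Every N array lay above every K array, and the K arrays spread more widely (SD 0.53) than the N arrays (SD 0.18), with K replicate 1 the lowest. The 95% interval of the difference ran from 0.79 to 1.92. Over all genes tested it did not pass (adjusted p = 0.119 from limma). Without K replicate 1 the log2FC was 1.07, and without K replicate 2 it was 1.60 (adjusted p = 0.192 and 0.0600 from limma).

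These values belong to cluster 10414269, and the other Bnip3 cluster, 10568785, showed a smaller difference. That cluster had 7.68, 8.04 and 8.04 on the N arrays, against 7.35, 7.39 and 7.75 on the K arrays. The groups overlapped there, since K replicate 3 lay above N replicate 1. Its log2FC was 0.42 (standard error 0.16, 95% interval 0.05 to 0.79), a 1.34-fold difference that did not pass (adjusted p = 0.543 from limma over all clusters with 1 symbol). The means over all arrays that decided the choice were close, 7.83 for the cluster used and 7.71 for the other. On the N arrays the cluster used was the brighter by 0.59, and on the K arrays it was the dimmer, with a difference of -0.34. The choice for Bnip3 therefore rested in part on the N arrays themselves, which is why its larger difference is given as a description. With the mean of both clusters the log2FC was 0.89 (adjusted p = 0.145 from limma).

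The annotation assigns both clusters to the Bnip3 transcript, but their numbers place them apart. Cluster numbers on this array follow the genome: for genes with a single cluster, the 5 named clusters on each side lay mostly on the gene's own chromosome in 99.7% of 18905 cases. For clusters of genes with several clusters this held in 78.9% of 2648 cases. Bnip3 lies on chromosome 7 from 138890836 to 138909506 (GRCm38.p6), and all 10 neighbours of cluster 10568785 belong to genes of chromosome 7. All 10 neighbours of cluster 10414269, the one used, belong to genes of chromosome 14. The files give no coordinates for either cluster, and whether the chosen one reads RNA of Bnip3 alone was not tested.

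Bnip3l, the other receptor, had a small difference of opposite sign. On the N arrays it had 11.01, 10.97 and 11.14, against 11.14, 11.18 and 11.27 on the K arrays. N replicate 3 lay within the K range, so the groups overlapped, and the log2FC was -0.16 (standard error 0.12, 95% interval -0.42 to 0.11, adjusted p = 0.777 from limma). The cluster used, 10421003, has 9 of its 10 neighbours on chromosome 14, where the gene lies from 66985238 to 67008877. The other, 10394800, has all 10 on chromosome 12, on which RefSeq lists the pseudogene Bnip3l-ps (18216547 to 18217776). It read 9.21, 9.66 and 9.42 with N and 9.61, 9.75 and 9.85 with K. Its log2FC of -0.31 (standard error 0.15) was also negative and did not pass (adjusted p = 0.642 from limma). For this gene the choice was not close, as the cluster used was brighter by 1.53.

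**Figure D1:**
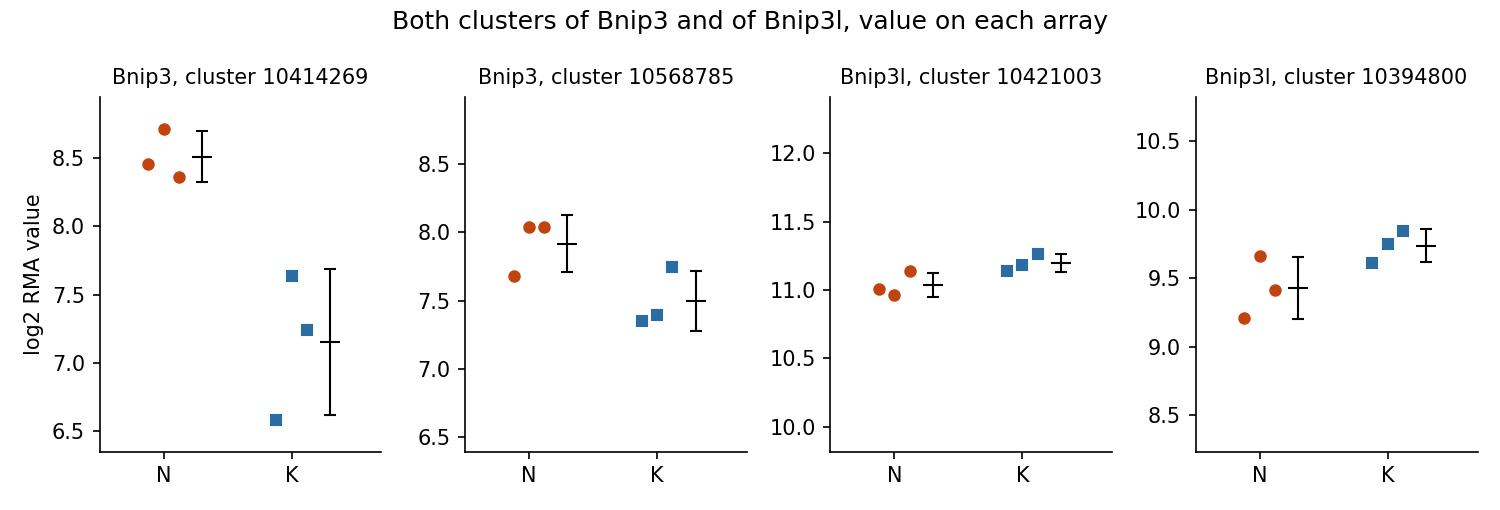
Log2 RMA values (vertical axes, each spanning the same range) of both Bnip3 and both Bnip3l clusters on the N arrays (circles, n = 3) and the K arrays (squares, n = 3), with the mean ± SD beside each group. The groups stand apart only in cluster 10414269 of Bnip3, with a log2FC of 1.35, against 0.42 in the other Bnip3 cluster.

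The mRNAs of the HIF alpha subunits were close between the groups. Hif1a read 9.83, 9.93 and 9.79 on the N arrays, against 9.74, 9.88 and 9.93 on the K arrays. Its log2FC was -0.0032 (standard error 0.12), and the interval, -0.27 to 0.27, left out a difference of 1.5-fold either way. Epas1, which encodes HIF-2 alpha, had 8.55, 8.17 and 8.39 with N and 8.64, 8.30 and 8.09 with K. Its arrays spread within each group by more than the groups differed, with a log2FC of 0.03 (standard error 0.17). The signs of Hif1a, Epas1, Egln1 and Vegfa turned under some settings, so no direction is given for these 4.

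Of the oxygen-sensing hydroxylases, Egln1 (also called PHD2), the main brake on HIF-1 alpha, had 8.33, 8.36 and 8.14 on the N arrays, against 8.32, 8.24 and 8.08 on the K arrays. The groups overlapped, with a log2FC of 0.06 (standard error 0.13). Egln3 (PHD3), itself a HIF target, had 7.38, 7.26 and 7.01 with N and 6.88, 7.32 and 6.54 with K. Here K replicate 2 lay within the N range and the other K arrays lay below it. The log2FC was 0.30 (standard error 0.20, 95% interval -0.16 to 0.76, adjusted p = 0.753 from limma). It ran from 0.12 without K replicate 3 to 0.50 without K replicate 2 (unadjusted P of 0.535 and 0.0197, adjusted p = 0.961 and 0.263 from limma).

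The targets that signal to vessels were Vegfa, the main angiogenic growth factor, and Adm, which encodes the vasodilator adrenomedullin. Vegfa had 8.50, 8.90 and 8.94 on the N arrays, against 8.45, 8.97 and 8.73 on the K arrays. Replicate 1 was the lowest in both groups, and the log2FC was 0.06 (standard error 0.18). Adm had 7.50, 8.15 and 8.01 with N and 8.00, 7.77 and 6.78 with K, where its SD of 0.65 was the widest of any member in either group. K replicate 3 alone lay below every N array. Its log2FC of 0.37 (standard error 0.31) was 0.0014 without that array, 0.61 without K replicate 1 and 0.56 without N replicate 1. The interval for Adm, -0.33 to 1.07, takes in a 2-fold difference.

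Ankrd37, an ankyrin repeat gene that HIF-1 induces, had 6.73, 6.84 and 6.36 on the N arrays, against 6.43, 6.47 and 6.68 on the K arrays. Ndrg1, a stress-responsive gene, had 6.73, 6.94 and 6.80 with N and 6.75, 6.68 and 6.85 with K. Both sets of values overlapped, with a log2FC of 0.11 (standard error 0.16) for Ankrd37 and 0.06 (standard error 0.12) for Ndrg1. With 1 array left out, Ankrd37 ran from 0.017 without N replicate 2 to 0.26 without N replicate 3, and Ndrg1 from 0.0060 without N replicate 2 to 0.11 without N replicate 1.

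**Figure D2:**
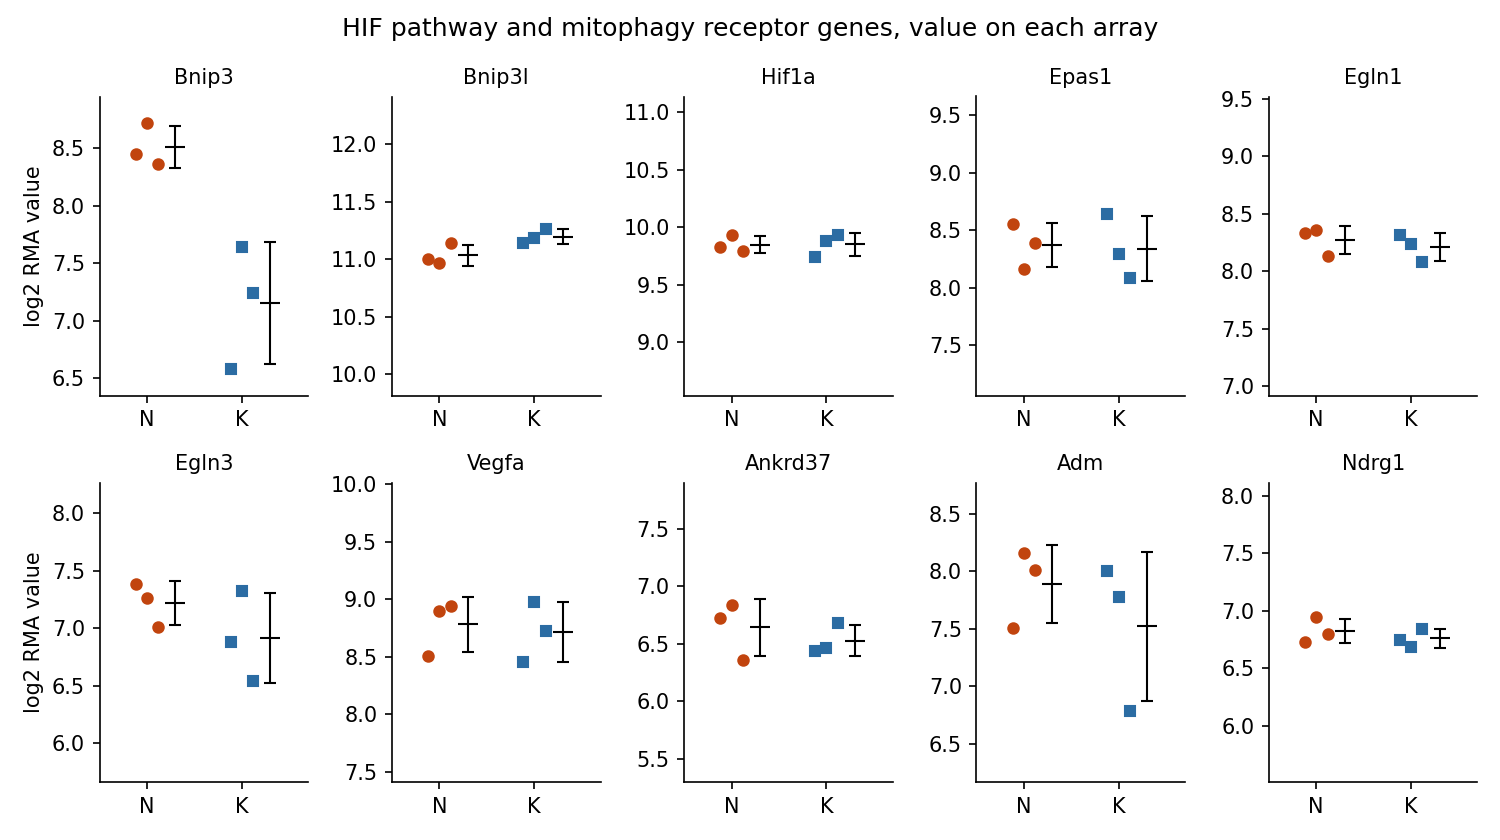
Log2 RMA values (vertical axes, each spanning the same range) of the 10 members on the N arrays (circles, n = 3) and the K arrays (squares, n = 3), with the mean ± SD beside each group. In the cluster used, Bnip3 is the 1 member whose N and K arrays do not overlap.

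Over the members together, 0 of 10 passed at an adjusted p under 0.05 (limma), where 0.155% of all genes tested did (0.120% higher and 0.0351% lower with N). At an unadjusted P under 0.05 the count was 1, Bnip3, beside 8.54% of all genes. In the cluster used, Bnip3 was also the 1 member to meet the rule of the study's methods. The rule asks for a log2FC beyond 1 either way and a P under 0.05, taken here as the unadjusted P from limma. It was met by 0.492% of all genes. The choice of that cluster rested in part on the N arrays, and with the other cluster or the mean of both no member met the rule. Since Bnip3's difference was known when the members were chosen, neither the count by P nor that by the rule bears on the set. In the clusters used, groups that do not overlap were found in 1 of 10 members and in 13.3% of all genes (5.78% with N above K and 7.55% with N below K). Of the members 8 had a positive log2FC, against 43.0% of all genes, and the median was 0.06, against -0.03 over all genes. All 10 members had means above the median over all clusters. The 11257 genes above it had a median log2FC of 0.0087, so the background of all genes leans lower than that of genes at such levels. The count of 8 includes Epas1, Egln1 and Vegfa, whose signs turned under some settings. For 7 of the 10 the 95% interval lay within 1.5-fold either way, as it did for 70.8% of all genes. The exceptions were Bnip3, Egln3 and Adm. With 3 arrays against 3, no two-sided exact permutation test on 1 gene reaches a p below 0.1.

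**Figure D3:**
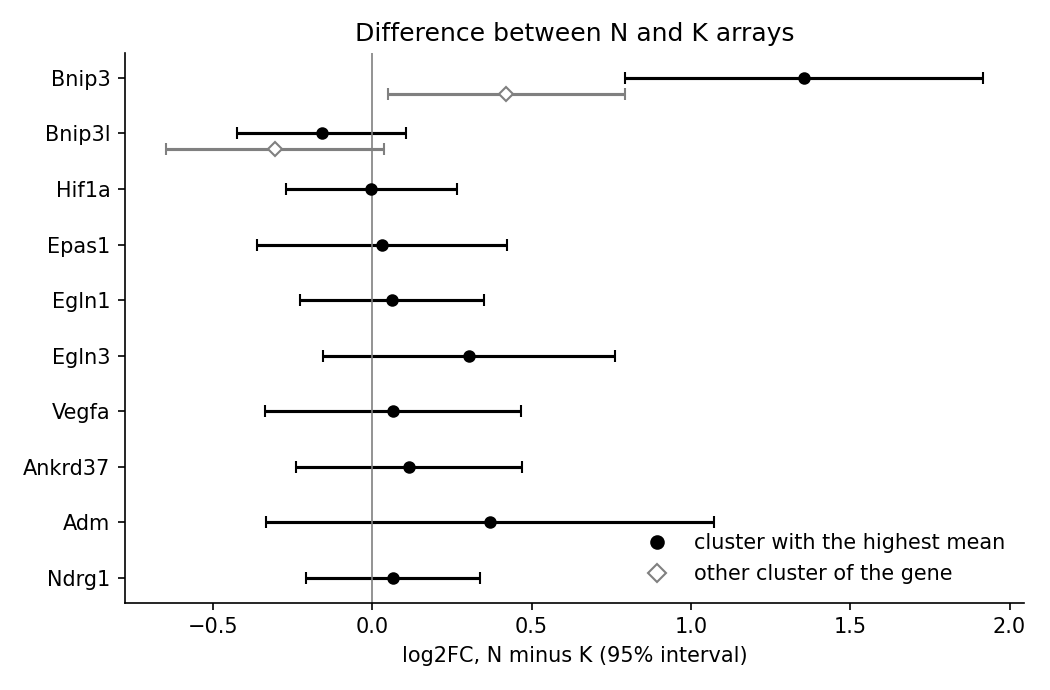
The horizontal axis gives the log2FC (N minus K) of each of the 10 members, with 95% intervals from limma, as filled circles for the cluster used and open diamonds for the other cluster of Bnip3 and of Bnip3l. The interval of Bnip3 runs from 0.79 to 1.92, while those of the other 9 members include 0 in the cluster used.

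Around the members, the rest of the pathway was described by 4 lists, none of whose genes passed over all genes tested. The first held 18 measured partners and regulators of HIF, with a median log2FC of -0.01. At an unadjusted P under 0.05, 2 were higher with N (4.64% of all genes) and 1 was lower (3.89%). The lower one was Hif1an, the asparaginyl hydroxylase that blocks the HIF transactivation domain. It had a log2FC of -0.65 (standard error 0.23, adjusted p = 0.491 from limma), with 5.32 ± 0.43 with N and 5.97 ± 0.31 with K (mean ± SD over 3 arrays each). Both means lay below the median over all clusters, and the groups overlapped. The higher ones were Cited2, whose protein competes with HIF for the coactivators CBP and p300, with 0.31 (standard error 0.12), and the chaperone gene Hsp90aa1 with 0.32 (standard error 0.14). Arnt, the dimer partner, had -0.20 (standard error 0.13), its relative Arnt2 0.09 (standard error 0.11) and Vhl -0.10 (standard error 0.19).

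Of 41 other HIF targets measured, 7 were higher with N (4.64% of all genes) and 2 lower (3.89% of all genes) at an unadjusted P under 0.05, and the median was -0.02. Fam162a, which encodes a mitochondrial protein, had 10.12, 10.08 and 10.11 on the N arrays, against 9.13, 9.81 and 9.46 on the K arrays. Like Bnip3 it spread less on the N arrays than on the K arrays and was lowest on K replicate 1, and its log2FC was 0.64 (standard error 0.17). That pattern was also seen in other genes named below, among them Atg7, Akr1e1 and Aig1. Bhlhe40 and Bhlhe41, which encode related repressors of the circadian clock, differed by a log2FC of 0.84 (standard error 0.21) for Bhlhe40 and 0.64 (standard error 0.16) for Bhlhe41. Ppp1r3c, a glycogen-targeting phosphatase subunit, had 0.76 (standard error 0.18) and the haem oxygenase gene Hmox1 0.72 (standard error 0.21). None of Fam162a, Bhlhe40, Bhlhe41, Ppp1r3c and Hmox1, the 5 with the smallest P of the list, had overlapping groups. Their adjusted p-values from limma ran from 0.263 to 0.350. Over the list, 8 of 41 had every N array above every K array (5.78% of all genes). For 3 of the 41 every N array lay below every K array (7.55% of all genes). Nampt, an enzyme of NAD synthesis, had 0.59 (standard error 0.18) and the metallothionein gene Mt2 0.64 (standard error 0.25, groups overlapping). The lower ones were the corepressor gene Rcor2, with -0.37 (standard error 0.12), and Plod2, a lysyl hydroxylase of collagen, with -0.33 (standard error 0.12). The mean of Rcor2 over all arrays lay below the median over all clusters.

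The glycolytic targets split in direction, with 5 of 15 higher (4.64% of all genes) and 2 lower (3.89% of all genes) at an unadjusted P under 0.05, and a median of -0.01. Higher with N were the glycolytic enzyme genes Tpi1 (0.65), Aldoc (0.55) and Pfkp (0.78), the glucose transporter gene Slc2a3 (0.46) and the kinase gene Pdk1 (0.48), which restrains entry of pyruvate into the citric acid cycle. These are log2FC with standard errors from 0.13 to 0.22, and none of the 5 had overlapping groups. Over the list, 5 of 15 had every N array above every K array (5.78% of all genes). For 2 of the 15 every N array lay below every K array (7.55% of all genes). The means of Slc2a3 and Pdk1 over all arrays lay below the median over all clusters. Lower with N were Pkm, with -0.35 (standard error 0.12), and, also without overlap, Slc2a1 with -0.38 (standard error 0.16), a widely expressed glucose transporter. Ldha had -0.10 and Pgk1 -0.01, both with overlapping groups. Pgk1 was even across the arrays, with 10.94 ± 0.03 with N and 10.95 ± 0.04 with K (mean ± SD over 3 arrays each).

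Of 25 measured genes of mitophagy and autophagy, 17 had a positive log2FC (43.0% of all genes), with a median of 0.11 against -0.03 over all genes. All 25 had means above the median over all clusters, and the genes above it had a median log2FC of 0.0087. Atg7, an enzyme that lipidation of LC3 needs, was the 1 gene of the 25 with an unadjusted P under 0.05, beside 8.54% of all genes. It had 7.68, 7.75 and 7.59 on the N arrays, against 7.06, 7.42 and 7.34 on the K arrays, and a log2FC of 0.40 (standard error 0.14, adjusted p = 0.449 from limma). Fundc1, another mitophagy receptor, had 0.03 (standard error 0.16), and the kinase gene Pink1 0.08 (standard error 0.11). Rheb had 0.55 (standard error 0.28), the LC3 gene Map1lc3b 0.28 (standard error 0.20) and the deubiquitinase gene Usp30, a brake on mitophagy, -0.22 (standard error 0.13). Rheb had the highest log2FC of the list, under the 1.35 of the Bnip3 cluster used and above the 0.42 of the other Bnip3 cluster.

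**Figure D4:**
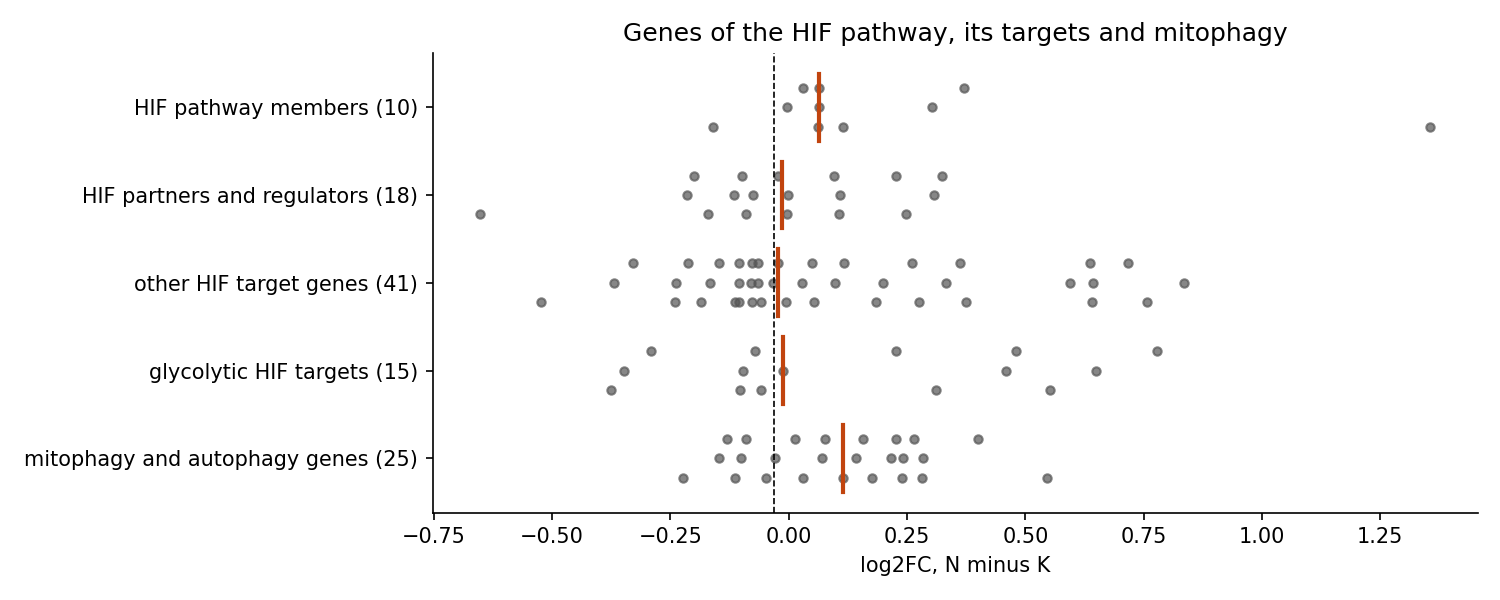
The horizontal axis gives the log2FC (N minus K) of the members and the measured genes of 4 pathway lists, as points (their number in brackets), with a bar at each list's median and a dashed line at the median over all genes, -0.03. The list medians run from -0.02 to 0.11, and Bnip3, at 1.35 in the cluster used, is the point farthest right.

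Genes that are not members were ranked by their likeness to Bnip3 over the 6 arrays. The ranking took in 1389 genes with a mean above the median gene and a range of at least 1. The first 5 were AI593442, Scg5, Akr1e1, Nnat and Aig1, with Pearson r from 0.963 to 0.956. All points of such a correlation come from the same 2 groups of arrays. Scg5, which encodes a chaperone of secretory granules, had a log2FC of 0.85 (standard error 0.12) and was the 1 of the 5 to pass (adjusted p = 0.0469 from limma). Nnat, an imprinted gene, had 0.76 (standard error 0.15). Fam162a, of the list of other HIF targets, had a range of 0.995, just short of the bound, and was therefore not ranked. Whether the pathway genes follow Bnip3 less closely than these 5 was not tested.

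Of 10 markers of astrocytes 9 had a positive log2FC and 6 were higher with N at an unadjusted P under 0.05 (4.64% of all genes). S100b had the opposite sign, with -0.47 (standard error 0.30). Of the 10, 8 had every N array above every K array (5.78% of all genes), and the mean log2 value over the list was 8.81 to 9.21 with N and 8.35 to 8.42 with K. Gfap was the 1 astrocyte marker to pass over all genes tested, with 8.14 ± 0.34 with N, against 6.48 ± 0.30 with K (mean ± SD over 3 arrays each, log2FC 1.66, adjusted p = 0.0358 from limma). The glycolytic gene Aldoc, listed above with the HIF targets, is itself enriched in astrocytes. Precursor markers were positive in 5 of 8, with a mean of 9.03 to 9.07 with N and 8.90 to 9.00 with K. At an unadjusted P under 0.05, Vim (0.44), Prom1 (0.40) and Hopx (0.39) were higher with N and Nes was lower (-0.53), none of them passing over all genes tested. Endothelial markers had 0 of 7 positive, where 43.0% of all genes were, and all 7 lay below the median over all clusters. Their mean was 5.48 to 5.53 with N and 5.53 to 5.67 with K. Positive were 6 of 7 markers of pericytes and fibroblasts, 1 of 7 of microglia and macrophages and 4 of 8 of neurons and neuroblasts. Of the oligodendrocyte lineage 3 of 7 were positive. The part that cell composition plays in the difference of Bnip3 was not tested.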

How the data were processed

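The deposited values are log2 values that the authors made from the scanned Affymetrix Mouse Gene 1.0 ST arrays with RMA in Partek Genomics Suite, with 1 value per transcript cluster and array (versions and settings not given in the sources used here). They were used as they stand. Of 34760 clusters, 21640 carried exactly 1 gene symbol in the array annotation, 1321 carried several and 11799 none, and the clusters with 1 symbol gave 19937 genes. Gene positions and promoter windows come from RefSeq (GRCm38.p6). The contrast N minus K was fitted with lmFit and eBayes of limma 3.58.1 (R 4.3.3) over all genes (no other term, 4 residual and 4.59 prior degrees of freedom), with Benjamini-Hochberg adjustment over all genes tested and a threshold of 0.05. The fit was tested on simulated data. The members and the gene lists were chosen with earlier results of these data known. Genes named in the text are all members and the 4 genes of each pathway list with the smallest P. Another 8 were fixed by name (Slc2a1, Ldha, Pgk1, Vhl, Arnt, Arnt2, Pink1 and Fundc1). The 5 genes most like Bnip3 among those ranked and the markers are also named. Hmox1, Nampt, Mt2, Rcor2, Plod2, Pdk1 and Pkm were named after their values were seen, to complete counts. Precision is limited by 3 arrays per group. Alternatives were the replicate number as a block, other normalizations, moderation, filters and cluster choices, and each array left out in turn. The second cluster of each gene as an alternative was added after the data were seen. Figures were drawn with matplotlib 3.10.9.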

Additional observations from a re-analysis of the deposited data

How the results depend on the processing

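Of 160 log2FC values of members, over 16 alternative settings, 147 kept their direction and their side of the threshold. Many of these could not change direction. The replicate block, the ordinary linear model, the other moderation, the filter on level and the fit over all clusters leave each member's log2FC as it was. The mean of clusters and the second cluster could change only Bnip3 and Bnip3l. Bnip3 stayed positive in all 16 and passed under 1 of them, the replicate number as a block (log2FC 1.35, adjusted p = 0.0478 from limma), which brought the members called to 1 and the genes called to 41. The numbers are not known to pair the arrays, since the deviations of same-numbered arrays correlated at 0.04, 0.04 and 0.12. The log2FC of Bnip3 was 0.42 with the second cluster of each gene, 0.89 with the mean of clusters, where no member met the rule of size (0 in both), and 1.07 to 1.60 with 1 array left out (adjusted p from 0.0600 to 0.367). Signs turned for members near 0: Epas1 had -0.017 with quantile normalization and -0.0061 with cyclic loess, and Hif1a 0.024 with arrays centred on the median. With 1 array left out Hif1a ran from -0.058 to 0.036, Epas1 from -0.097 to 0.18, Egln1 from -0.0047 to 0.13 and Vegfa from -0.068 to 0.20. Members at an unadjusted P under 0.05 numbered 1 to 2 with 1 array left out, the added one being Egln3. Genes called over all genes, 31, were 1 in an ordinary linear model, 12 with quantile and 12 with cyclic loess normalization, 3 with centred arrays, 0 with all clusters in the fit (2174 of 34760 at an unadjusted P under 0.05, limma), 61 at an adjusted p under 0.1 and 0 to 21 with 1 array left out. Omitting N replicate 1, N replicate 2 or K replicate 1 gave 0 calls, omitting N replicate 3 gave 4, omitting K replicate 3 gave 9 and omitting K replicate 2 gave 21. The median of the other HIF targets was 0.053 with genes above the median of all clusters only, and -0.055 to 0.026 with 1 array left out, and that of the glycolytic targets -0.048 to 0.058. No gene of the 4 pathway lists was called under any of the 16 settings. Arrays give no counts, so precision rests on the number of arrays and on signal over background.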
